A study of Mus musculus with 9 samples.

Results

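The 32 genes described here are transcription factors that mark regions of the thalamus, hypothalamus and midbrain. They were chosen by name from the 38621 genes in the table, with earlier results of these data known and without the Irx genes. All 32 were present. They were grouped as 9 hypothalamic genes (Otp, Nkx2-1, Six6, Sim1, Hmx2, Hmx3, Rax, Nhlh2 and Foxb1), 8 midbrain genes (Lmx1a, Lmx1b, En1, En2, Foxa1, Foxa2, Pitx3 and Pax7) and 4 selector genes of GABAergic neurons (Gata2, Gata3, Tal1 and Sox14). The other genes were 9 of the wider diencephalon (Lhx1, Lhx5, Lhx9, Lhx2, Uncx, Barhl1, Barhl2, Pou4f1 and Shox2) and 2 that are also used widely outside these regions (Otx1 and Meis1). RNA came from the brains of 9 C57BL/6 mice, which the study's methods describe as male. The sham, ICH and feb groups had 3 mice each. ICH mice received a stereotaxic injection of their own blood, a model of intracerebral hemorrhage. Sham mice carry the label untreated and were injected with saline according to the methods. Feb mice were given febuxostat, an inhibitor of xanthine oxidase, by gavage before the blood injection, so the feb and ICH groups share the hemorrhage. The age, the dissected part of the brain and the time between injection and RNA extraction were not given in the sources used here. As the tissue was bulk, fewer cells of a type and less RNA per cell cannot be told apart in any of the values below.

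Transcription factors of this kind are switched on in restricted domains of the embryonic brain, where they assign the fate of the neurons born there. Many stay on at a low level in the adult neurons of the same nucleus, so that a few nuclei carry most of the RNA in a whole brain. Otp and Sim1 specify neuroendocrine neurons of the hypothalamus, whereas Lmx1a, Lmx1b, En1, En2, Foxa1, Foxa2 and Pitx3 build and maintain midbrain dopamine neurons. Gata2, Gata3 and Tal1 act together to select the GABAergic fate in the midbrain and at its border with the thalamus.

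Levels are in RPKM, the reads of a gene divided by its exon length and by the total of its library, and are listed in the order of mouse 1, 2 and 3 of a group. Each mouse had 23065757 to 29538009 reads on genes. A gene was tested if 3 or more mice reached an RPKM of 0.1, which was so for 28 of the 32 genes, and none of the 28 passed through the mice of 1 group only. Hmx2, Rax, Foxa1 and Foxa2 did not pass. Sham 1 stood apart from the other mice in genes of serotonin neurons and the hindbrain, whose summed level was 14.1 RPKM there and 0.0801 to 1.07 RPKM in the other 8 mice. Values without that mouse are given below.

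Most of these genes were expressed at a low level. The mean over the 9 mice was above 1 RPKM in 5 genes, and 10 genes stayed under 1 RPKM in every mouse. Shox2, a homeobox gene of the thalamus and habenula, was the highest at a mean of 12.1 RPKM, followed by Lhx2 at 2.34 RPKM and Lhx9, a LIM homeobox gene of the thalamus, at 1.49 RPKM. Lhx2, which is also expressed in the cortex, and Lhx9 overlapped between mice. The lowest mean, 0.0532 RPKM, was that of Hmx2, a homeobox gene of the hypothalamus. The highest value over the 9 mice was in a sham mouse for 21 genes, in an ICH mouse for 1 gene and in a feb mouse for 10 genes.

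**Figure D1:**
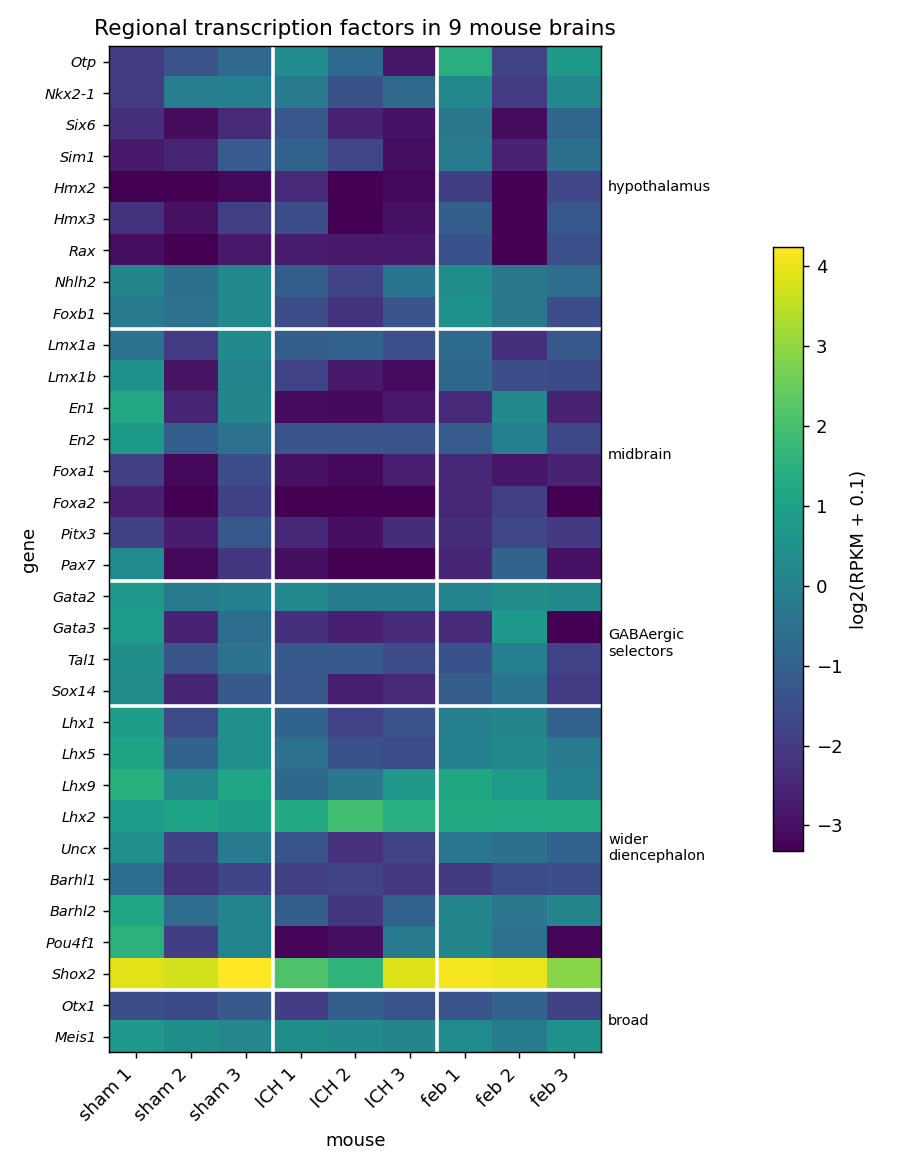
Level of each of the 32 genes (rows, grouped by region) in each of the 9 mice (columns), as log2(RPKM + 0.1) on the colour scale. Several midbrain and GABAergic selector genes were high in sham 1, sham 3 and feb 2, whereas several hypothalamic genes were high in feb 1 and feb 3, so that mice of the same group differed. Other genes of these lists did not share the pattern, such as Lmx1a, which was lowest in feb 2.

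Midbrain genes varied widely among the sham mice. En1 (chr1:120602418-120607992, plus strand, GRCm38), an engrailed homeobox gene that maintains midbrain dopamine neurons, was at 2.26, 0.0729 and 1.02 RPKM in the sham mice. It was at 0.0156, 0.0145 and 0.0437 RPKM in the ICH mice and at 0.0864, 1.07 and 0.0661 RPKM in the feb mice. The ICH values rest on 1, 1 and 3 reads, and the highest sham value on 175 reads. All ICH mice were thus below all sham mice and all feb mice, but sham 2 lay close to the feb mice that were low. En2, its paralog, was at 1.65, 0.378 and 0.613 RPKM in the sham mice, 0.300, 0.301 and 0.281 RPKM in the ICH mice and 0.363, 0.862 and 0.208 RPKM in the feb mice. All 3 ICH mice were below the sham mice for En2 and within the range of the feb mice.

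Lmx1b, a LIM homeobox gene required for dopamine and serotonin neurons, was at 1.33, 0.0314 and 0.955 RPKM in the sham mice, 0.184, 0.0467 and 0.0156 RPKM in the ICH mice and 0.472, 0.244 and 0.222 RPKM in the feb mice. The feb mice were all above the ICH mice, whereas sham 2 was as low as the ICH mice. Its paralog Lmx1a was at 0.638, 0.146 and 1.13 RPKM in the sham mice, 0.385, 0.414 and 0.259 RPKM in the ICH mice and 0.523, 0.105 and 0.319 RPKM in the feb mice, with overlap between all groups. Pax7, a paired box gene of the dorsal midbrain, was at 1.18, 0.0131 and 0.134 RPKM in the sham mice. It was at 0.0209, 0 and 0 RPKM in the ICH mice and at 0.0774, 0.426 and 0.0296 RPKM in the feb mice. The highest sham value of Pax7 was 90.3 times the lowest one.

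Pitx3, a homeobox gene of dopamine neurons, was at 0.177, 0.0501 and 0.326 RPKM in the sham mice, 0.0803, 0.0249 and 0.10 RPKM in the ICH mice and 0.0990, 0.208 and 0.142 RPKM in the feb mice, and the groups overlapped. The forkhead genes Foxa1 and Foxa2, which act early in the midbrain floor, were too low for the test. Foxa1 had 1 to 22 reads in a mouse and Foxa2 had 0 to 12 reads, with 0 reads of Foxa2 in all 3 ICH mice. Across all 8 midbrain genes, sham 2 was the lowest sham mouse in 8 of 8, sham 1 and sham 3 were each the highest in 4, and feb 2 was the highest feb mouse in 5.

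**Figure D2:**
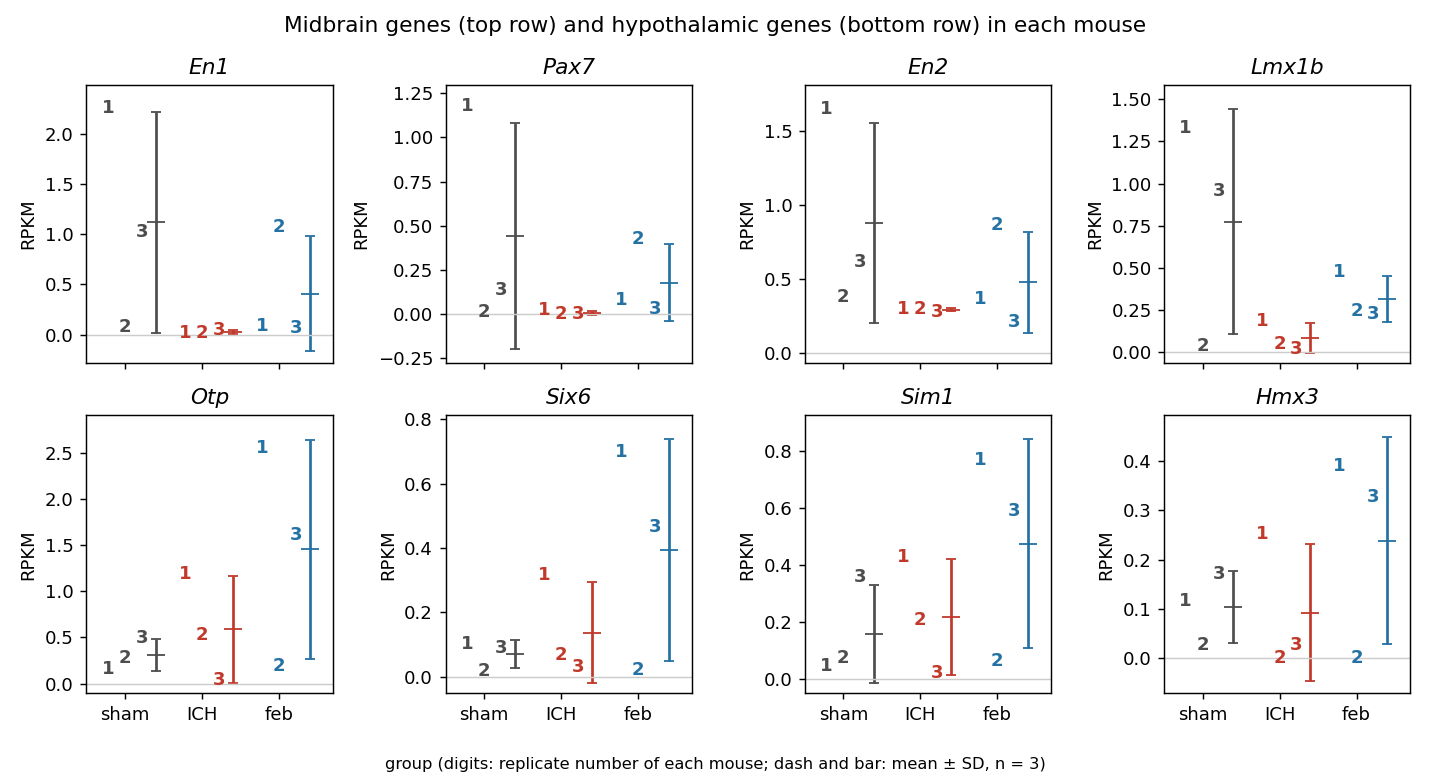
RPKM (vertical axes) of 4 midbrain genes (top row) and 4 hypothalamic genes (bottom row) in each mouse, with the digit giving the mouse of each group and the dash and bar the mean ± SD (n = 3). In the top row sham 1 was the highest sham mouse in all 4 genes, and in the bottom row feb 2 was the lowest feb mouse in all 4 genes. The panels show a selection. Over all 8 midbrain genes sham 1 was the highest sham mouse in 4 and sham 3 in 4. Over all 9 hypothalamic genes feb 2 was the lowest feb mouse in 7 and feb 3 in 2.

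The GABAergic selector genes were highest in sham 1 and feb 2. Gata3, a zinc finger factor, was the most variable of them, at 1.68, 0.0673 and 0.563 RPKM in the sham mice, 0.103, 0.0573 and 0.0960 RPKM in the ICH mice and 0.0950, 1.61 and 0 RPKM in the feb mice. Sham 1 was the highest and sham 2 the lowest sham mouse in all 4 selector genes, and feb 2 was the highest feb mouse in all 4. Tal1 ranged from 0.188 to 1.25 RPKM and Sox14 from 0.0552 to 1.21 RPKM over the 9 mice. Gata2 varied less, from 0.751 to 1.56 RPKM. None of the 4 passed the test in any comparison.

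Hypothalamic genes were distributed differently over the mice. Otp (chr13:94875602-94885130, plus strand) was at 0.153, 0.279 and 0.494 RPKM in the sham mice, 1.19, 0.528 and 0.0398 RPKM in the ICH mice and 2.56, 0.192 and 1.61 RPKM in the feb mice. These values rest on 3 reads in ICH 3 and 195 reads in feb 1. Feb 1 and feb 3 were therefore above every other mouse and feb 2 was below sham 2 and sham 3. Sim1, its partner in the neuroendocrine lineage, was at 0.0460, 0.0728 and 0.358 RPKM in the sham mice, 0.428, 0.207 and 0.0208 RPKM in the ICH mice and 0.770, 0.0646 and 0.589 RPKM in the feb mice. Six6, a homeobox gene of the ventral hypothalamus and eye field, was at 0.101, 0.0191 and 0.0887 RPKM in the sham mice, 0.316, 0.0664 and 0.0286 RPKM in the ICH mice and 0.697, 0.0198 and 0.465 RPKM in the feb mice. Both genes had the order of Otp in the ICH and feb mice.

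Nkx2-1, which patterns the ventral hypothalamus, was at 0.155, 0.848 and 0.851 RPKM in the sham mice, 0.776, 0.268 and 0.511 RPKM in the ICH mice and 1.06, 0.153 and 1.07 RPKM in the feb mice. Hmx3 was at 0.116, 0.0263 and 0.171 RPKM in the sham mice, 0.252, 0 and 0.0262 RPKM in the ICH mice and 0.389, 0 and 0.327 RPKM in the feb mice. Hmx2, its neighbour on chromosome 7, had 0 to 15 reads and Rax, a homeobox gene of the hypothalamic floor, 0 to 12 reads, and both were highest in feb 1 and feb 3. The groups overlapped for Otp, Sim1, Six6, Nkx2-1 and Hmx3 in all 3 comparisons.

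Foxb1 and Nhlh2 were below their sham mean in all ICH mice. Foxb1 (chr9:69757710-69760940, minus strand), a forkhead gene of the mammillary body and thalamus, was at 0.749, 0.603 and 1.12 RPKM in the sham mice, 0.246, 0.115 and 0.294 RPKM in the ICH mice and 1.35, 0.704 and 0.247 RPKM in the feb mice. The ICH mice were all below the sham mice, and feb 3 lay within the ICH range. Nhlh2, a helix-loop-helix gene of hypothalamic neurons that control body weight, was at 1.01, 0.593 and 1.04 RPKM in the sham mice, 0.385, 0.190 and 0.663 RPKM in the ICH mice and 1.27, 0.695 and 0.544 RPKM in the feb mice. ICH 3 was above sham 2 for Nhlh2, so the groups overlapped.

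To set the hypothalamic against the midbrain genes in each mouse, the mean log2(RPKM + 0.1) was taken over the 9 and the 8 genes. The hypothalamic mean of sham mice was -1.97, -1.97 and -1.30, that of ICH mice -1.25, -2.20 and -2.25, and that of feb mice -0.25, -2.23 and -0.77. The midbrain mean of sham mice was -0.49, -2.61 and -0.83, that of ICH mice -2.39, -2.62 and -2.55, and that of feb mice -1.85, -1.38 and -2.26. Feb 1 and feb 3 thus had the highest hypothalamic means. Their midbrain means were below those of sham 1, sham 3 and feb 2 and above those of sham 2 and the ICH mice. Among the feb mice, feb 2 had the lowest hypothalamic and the highest midbrain mean. The hypothalamic minus the midbrain mean was -0.44 ± 1.06 in the sham, 0.62 ± 0.45 in the ICH and 0.74 ± 1.38 in the feb group (SD, n = 3). It ranged from -1.48 to 0.64 in the sham, from 0.30 to 1.14 in the ICH and from -0.84 to 1.59 in the feb mice, so the 3 groups overlapped.

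**Figure D3:**
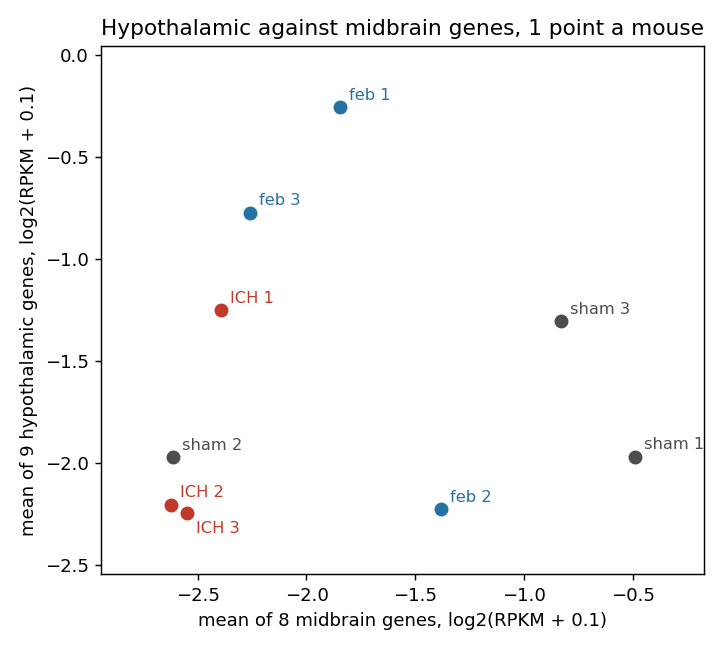
Mean of the 9 hypothalamic genes (vertical axis) against the mean of the 8 midbrain genes (horizontal axis), both as log2(RPKM + 0.1), with 1 point a mouse. Sham 1, sham 3 and feb 2 lie to the right, and feb 1 and feb 3 at the top left, apart from feb 2.

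Some markers of mature neurons from the same regions were high in the same mice and others were not. Slc6a3, the dopamine transporter, was at 2.91, 0.0554 and 6.01 RPKM in the sham mice, 0.165, 0.0550 and 0 RPKM in the ICH mice and 0.120, 1.82 and 0.0502 RPKM in the feb mice. Like En1 it was highest in sham 1, sham 3 and feb 2. Oxt, the oxytocin precursor made by neurons that require Otp and Sim1, was at 0, 2.64 and 7.09 RPKM in the sham mice, 56.1, 29.9 and 3.48 RPKM in the ICH mice and 55.7, 0.0738 and 39.4 RPKM in the feb mice. Avp, the vasopressin precursor, was at 0.0587, 1.92 and 20.7 RPKM in the sham, 57.8, 9.82 and 0.794 RPKM in the ICH and 44.1, 0.206 and 41.5 RPKM in the feb mice. Both peptides were high in ICH 1, feb 1 and feb 3 and low in feb 2 and ICH 3, as Otp was. Other genes of the same lists had other orders. Ddc, a synthesis enzyme of dopamine and serotonin, was at 7.61, 2.74 and 7.42 RPKM in the feb mice, lowest in feb 2, and Pomc, a peptide precursor of the arcuate nucleus, was highest in sham 1 at 29.6 RPKM and ICH 2 at 16.6 RPKM. Over the 14 hypothalamic peptide genes, feb 2 was the lowest feb mouse in 13 and ICH 1 the highest ICH mouse in 11. Over the 8 midbrain dopamine neuron genes, sham 2 was the lowest sham mouse in 6 and feb 2 the highest feb mouse in 4. Slc6a3, Oxt, Avp and Pomc were picked after their values were seen, and the part of these genes in the results was not tested.

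The promoters of 4 genes follow, chosen because they pair genes that were high in the same mice, En1 and Gata3 for the midbrain pattern and Otp and Six6 for the hypothalamic pattern. They run from 250 bases before to 50 bases after a start given by RefSeq on GRCm38.p6. These starts can differ from the gene limits of the deposited data, in which Gata3 spans chr2:9857078-9890034. Capitals mark CAGCTG, a core that helix-loop-helix factors such as Tal1 and Nhlh2 can bind. En1 is at chr1:120602237-120602536 on the plus strand, Gata3 at chr2:9878551-9878850 on the minus strand, Otp at chr13:94875386-94875685 on the plus strand and Six6 at chr12:72939632-72939931 on the plus strand.
En1: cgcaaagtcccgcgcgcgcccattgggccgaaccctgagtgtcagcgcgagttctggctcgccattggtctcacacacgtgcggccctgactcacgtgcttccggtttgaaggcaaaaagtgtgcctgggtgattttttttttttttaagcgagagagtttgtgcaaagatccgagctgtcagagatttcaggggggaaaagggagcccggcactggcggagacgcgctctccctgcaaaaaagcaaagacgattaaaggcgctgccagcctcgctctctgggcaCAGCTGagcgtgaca
Gata3: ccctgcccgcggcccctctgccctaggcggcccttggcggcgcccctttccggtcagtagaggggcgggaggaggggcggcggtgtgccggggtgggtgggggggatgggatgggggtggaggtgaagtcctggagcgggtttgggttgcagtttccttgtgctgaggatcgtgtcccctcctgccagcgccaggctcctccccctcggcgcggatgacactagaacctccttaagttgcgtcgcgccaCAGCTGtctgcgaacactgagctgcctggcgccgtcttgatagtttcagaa
Otp: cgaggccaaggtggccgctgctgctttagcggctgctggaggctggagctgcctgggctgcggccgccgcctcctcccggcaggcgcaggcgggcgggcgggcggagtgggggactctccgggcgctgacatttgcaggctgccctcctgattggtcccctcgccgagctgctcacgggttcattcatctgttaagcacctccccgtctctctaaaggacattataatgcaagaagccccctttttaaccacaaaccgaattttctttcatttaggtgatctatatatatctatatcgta
Six6: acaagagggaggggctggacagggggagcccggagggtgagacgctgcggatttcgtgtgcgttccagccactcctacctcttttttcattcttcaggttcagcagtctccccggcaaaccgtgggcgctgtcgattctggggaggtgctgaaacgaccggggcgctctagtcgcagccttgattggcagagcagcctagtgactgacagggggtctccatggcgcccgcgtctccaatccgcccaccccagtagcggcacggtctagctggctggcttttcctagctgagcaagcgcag

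En1 and Gata3 held 1 CAGCTG each, and these letters were not in the windows of Otp and Six6. The count used 34 RefSeq windows for 27 of the 32 genes and none for Foxb1, Lhx5, En2, Otx1 and Rax. Windows on chromosome 18, where Rax lies, were left out of the 34 windows but not of the set of all windows. CAGCTG, searched on both strands, was in 8 of the 34 windows (23.5%) and in 16.3% of all 32851 windows. By list it was in 2 of 9 midbrain, 2 of 6 GABAergic selector, 3 of 10 wider diencephalic and 1 of 8 hypothalamic windows. The hypothalamic window was that of Nhlh2, and the midbrain genes Pax7 and Lmx1b had no CAGCTG. The 4 printed windows therefore do not stand for their lists. The core bound by many homeodomains, TAATTA, was in 2 windows (5.88%) and in 5.29% of all windows. For AGATAA, which zinc finger factors such as Gata2 can bind, the share was 11.8% (4 windows) against 11.2%. For TGTTTAC, a forkhead motif, it was 2.94% (1 window) against 3.65%. The median GC content was 62.3% in the 34 windows and 52.7% in all windows. The ratio of observed to expected CpG had a median of 0.723 in the 34 windows and 0.384 in all windows. These are counts of letters and do not show that a factor was bound.

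ICH against sham asks what the hemorrhage changed. Calls required both a fold change of more than 2 and an unadjusted p below 0.05 in limma, a linear model fitted to all 29025 genes tested on the log2(RPKM + 0.1) scale, which understates the change of low genes. Of the 28 genes, 7 fell (Barhl2, En1, Foxb1, Lhx5, Nhlh2, Shox2 and Uncx) and 0 rose in ICH, whereas over all genes 1.07% were called lower and 1.46% higher. That split of 312 lower and 423 higher became 443 and 296 with equal medians and 406 and 317 with quantile normalization. The 28 genes were chosen with earlier results of these data known. The study had already listed Barhl2, Foxb1, Lhx1, Lhx5, Lmx1b and Uncx among genes changed in both ICH against sham and feb against ICH. The share of the 28 genes called is therefore not independent of these data. The 7 genes were 2 of 7 hypothalamic, 1 of 6 midbrain, 0 of 4 GABAergic selector, 4 of 9 wider diencephalic and 0 of 2 widely used genes. None had an adjusted p under 0.05 in limma, and 8 of the 28 had an unadjusted p under 0.05. Sham and ICH did not overlap in 5 of 28 genes (17.9%), close to the 19.4% of all genes. The median log2 fold change was -1.01 over the 28 genes and 0.08 over all genes.

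Barhl2 (chr5:106452523-106458166, minus strand), a BarH-like homeobox gene of the diencephalon, was at 2.11, 0.546 and 0.969 RPKM in the sham mice, 0.388, 0.131 and 0.413 RPKM in the ICH mice and 1.01, 0.702 and 0.993 RPKM in the feb mice. The ICH mice were below all mice of both other groups. Barhl2 fell by 1.57 on the log2 scale in ICH (SE 0.47, limma adjusted p = 0.345). En1, with the values given above, fell by 2.63 (SE 1.01, limma adjusted p = 0.383), and this size depends on the pseudocount because the ICH mice had 1 to 3 reads. Over the alternative settings it ranged from -4.33 to -0.90. Foxb1 fell by 1.54 (SE 0.50, limma adjusted p = 0.350) and Nhlh2 by 1.01 (SE 0.42, limma adjusted p = 0.391).

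The other 3 genes that fell belong to the wider diencephalon. Lhx5 (chr5:120431699-120441223, plus strand), a LIM homeobox gene, was at 2.04, 0.427 and 1.30 RPKM in the sham mice, 0.623, 0.269 and 0.241 RPKM in the ICH mice and 0.899, 1.1 and 0.774 RPKM in the feb mice. It fell by 1.37 on the log2 scale (SE 0.50, limma adjusted p = 0.378), although ICH 1 was above sham 2. Uncx, a homeobox gene, was at 1.27, 0.183 and 0.783 RPKM in the sham mice, 0.287, 0.109 and 0.195 RPKM in the ICH mice and 0.675, 0.594 and 0.415 RPKM in the feb mice. It fell by 1.28 (SE 0.54, limma adjusted p = 0.397), with sham 2 inside the ICH range. Shox2 was at 14.8, 13.2 and 18.7 RPKM in the sham mice, 4.24, 2.99 and 14.1 RPKM in the ICH mice and 17.5, 16.2 and 7.28 RPKM in the feb mice. It fell by 1.43 (SE 0.55, limma adjusted p = 0.382), with ICH 3 inside the sham range.

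Lhx2 had the lowest p of the 28 genes and pointed the other way. It was at 1.70, 1.98 and 1.74 RPKM in the sham mice, 2.37, 3.75 and 2.62 RPKM in the ICH mice and 2.33, 2.27 and 2.33 RPKM in the feb mice. The 3 groups did not overlap, with ICH highest and sham lowest. The log2 difference between ICH and sham was 0.64 (SE 0.17, limma adjusted p = 0.334), which is under the fold change of 2, so Lhx2 was not called. Among the others, Pou4f1, a POU factor of the habenula, had the second largest difference at -2.04 (SE 1.19, limma adjusted p = 0.485), and it ranged from 0.00874 to 2.81 RPKM. The remaining genes with a difference below -1 were Lmx1b, Gata3, Pax7, Lhx1, En2, Lhx9 and Sox14, and none of them was called here. The study, by edgeR on counts, had listed Lmx1b and Lhx1 as changed in ICH against sham. Of the 6 midbrain genes tested 0 had a positive difference, against 3 of the 7 hypothalamic genes. The median difference was -1.35 over the midbrain and -0.08 over the hypothalamic genes. The gap between these medians, 1.27, was 0.44 without sham 1 and 1.99 without sham 2.

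**Figure D4:**
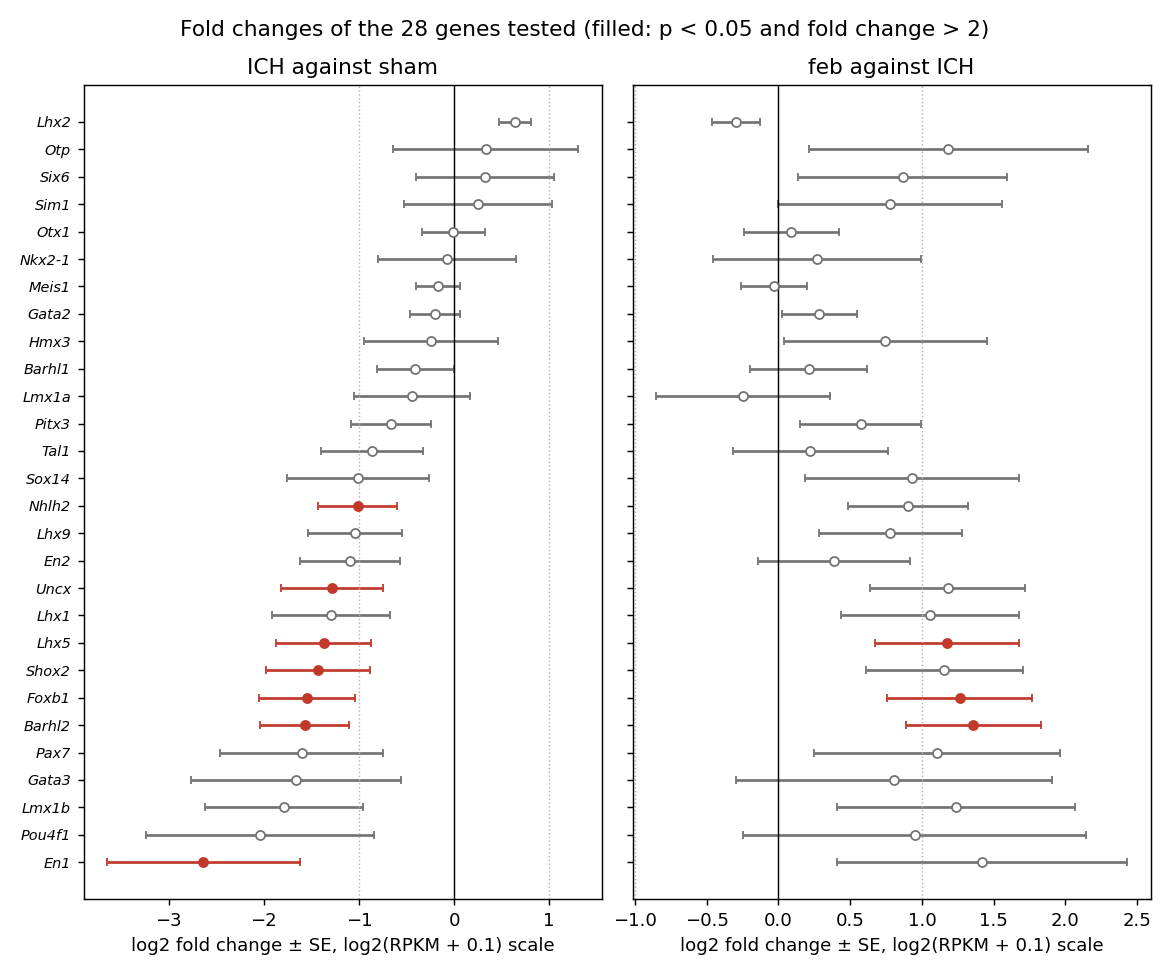
Log2 fold change ± SE (limma, log2(RPKM + 0.1) scale) of the 28 genes tested, for ICH against sham (left) and feb against ICH (right), with dotted lines at a fold change of 2 and filled points for called genes. The 7 called genes lie left of the line at -1 in ICH against sham. In feb against ICH, 3 of them are filled (Barhl2, Foxb1 and Lhx5). En1, Uncx and Shox2 also lie right of the line at 1 there without being called, and Nhlh2 lies left of it.

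Feb against ICH asks what febuxostat changed in mice with hemorrhage. The methods describe gavage for the feb group only, so the drug and the gavage cannot be told apart. Of the 28 genes, 3 rose (Barhl2, Foxb1 and Lhx5) and 0 fell, whereas over all genes 1.38% were called higher and 1.05% lower. The study had already listed these 3 genes as changed in these mice, so this share is not independent of the data either. Barhl2 rose by 1.36 on the log2 scale (SE 0.47, limma adjusted p = 0.375), Foxb1 by 1.26 (SE 0.50, limma adjusted p = 0.416) and Lhx5 by 1.18 (SE 0.50, limma adjusted p = 0.444). All feb mice were above all ICH mice for Barhl2 and Lhx5, but not for Foxb1. None of the 28 genes had an adjusted p under 0.05 in limma, and 3 had an unadjusted p under 0.05. The groups did not overlap in 7 of 28 genes (25%), against 17.2% of all genes. These were Barhl2, En1, Lhx5, Lmx1b, Pax7 and Uncx, higher in feb, and Lhx2, lower in feb. The median difference was 0.84 over the 28 genes and -0.01 over all genes.

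En1, Lmx1b, Pax7 and Uncx did not pass the test although all feb mice were above all ICH mice, with log2 differences of 1.42 (SE 1.01), 1.24 (SE 0.83), 1.11 (SE 0.86) and 1.18 (SE 0.54). By its own test, edgeR on counts, the study had listed Lhx1, Lmx1b and Uncx as changed in this comparison, so the calls of the tests differ. Otp had a difference of 1.18 (SE 0.97, limma adjusted p = 0.667), with feb 2 below ICH 1 and ICH 2. The median difference was 0.87 over the 7 hypothalamic and 0.84 over the 6 midbrain genes. The hypothalamic minus the midbrain median was -0.52 without feb 1 and 1.02 without feb 2. This comparison and ICH against sham contain the same ICH mice, so the values of a gene in them are not independent.

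Feb against sham asks how far the treated mice were from mice without hemorrhage. Of the 28 genes 0 were called in limma, 0 had an unadjusted p under 0.05, and the lowest adjusted p was 0.617. Over all genes 1.59% were called higher and 0.613% lower, or 461 and 178 genes, a split that became 300 and 252 with equal medians and 295 and 245 with quantile normalization. Feb and sham did not overlap in 1 of 28 genes (3.57%), Lhx2, against 12.7% of all genes. The largest positive differences were those of Otp at 1.52 (SE 0.97), Six6 at 1.19 (SE 0.73) and Sim1 at 1.03 (SE 0.78), and the largest negative ones those of En1 at -1.22 (SE 1.01) and Pou4f1 at -1.09 (SE 1.19). Differences of over 2-fold in these 5 genes did not pass the test, with SEs of 0.73 to 1.19. The median difference was 0.50 over the hypothalamic and -0.62 over the midbrain genes, and all 6 midbrain genes were negative. The gap of 1.12 between these medians was 0.63 without feb 3, 0.69 without sham 1, 1.80 without sham 2 and 2.0 without feb 2.

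The calls depended on single mice. Without sham 2, the lowest sham mouse in 26 of the 32 genes, 17 genes were called lower in ICH, among them En1, En2, Lmx1b, Pax7, Pitx3, Gata3, Tal1 and Sox14. Over all 29025 genes tested, 452 were called lower in ICH without sham 2, against 312 with all 9 mice. Without sham 3 or without ICH 2 only Barhl2 was called, and without sham 1 only Barhl2 and Foxb1. Over all genes, 280 were called lower without sham 3, 259 without ICH 2 and 273 without sham 1. Barhl2 was the only gene called lower in ICH with any of the 9 mice left out. With a pseudocount of 1, however, Barhl2 was not called and Shox2 was the only gene called. In feb against ICH, 0 genes were called without feb 1 or without ICH 2, and Barhl2 was called in 6 of 9 cases. Over all genes, 492 were called higher in feb without feb 1 and 341 without ICH 2, against 401 with all 9 mice. Without feb 2, Barhl2, Hmx3, Otp and Six6 were called higher in feb than in ICH, and Otp, Sim1 and Six6 were called higher and Tal1 lower in feb than in sham. Over all genes in that case, 461 were called higher in feb than in ICH, and 669 higher and 361 lower in feb than in sham. Without sham 2, En1, Lmx1a and Lmx1b were called lower in feb than in sham, as were 266 over all genes, against 178 with all 9 mice.

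**Figure D5:**
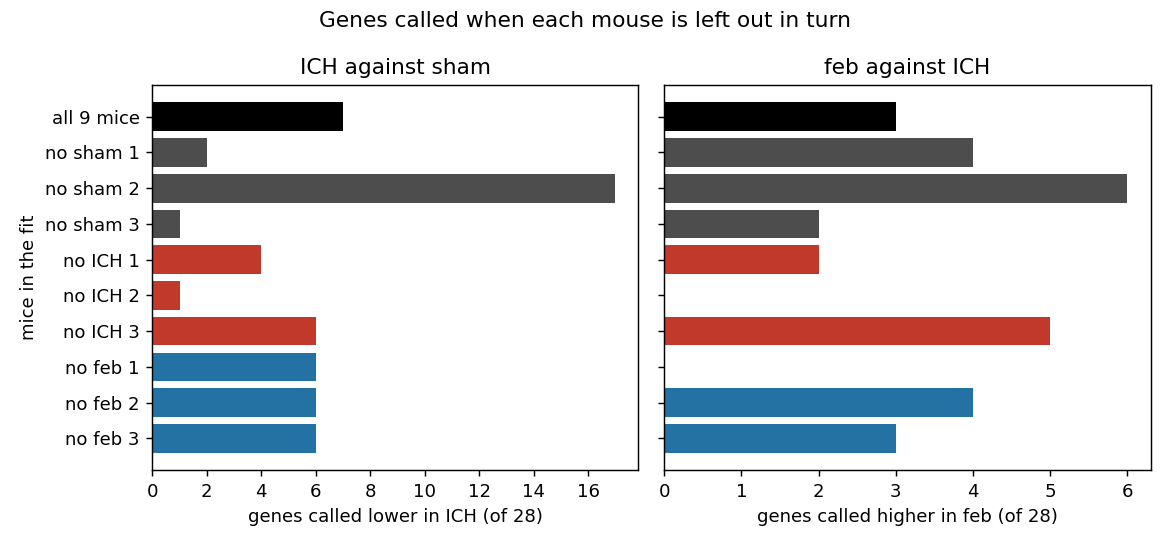
Number of the 28 genes called lower in ICH than in sham (left) and higher in feb than in ICH (right), with all 9 mice and with each mouse left out. The number ranges from 1 to 17 on the left and from 0 to 6 on the right. Over all genes and in either direction, 619 to 1299 were called in ICH against sham and 615 to 932 in feb against ICH.

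The spread within groups was larger in these genes than in most others. The residual SD of the 28 genes had a median of 0.77 on the log2 scale, against 0.28 over all genes tested. Mice of the same group differed more than 4-fold on the log2(RPKM + 0.1) scale in 17 of 28 genes (60.7%), against 11.3% of all genes. Within 1 group, the highest value was 31.0 times the lowest for En1 in sham, 35.3 times for Six6 in feb, 30.0 times for Otp in ICH and 108 times for Pou4f1 in feb. The residual SD was lowest for Lhx2 at 0.20, followed by Meis1 at 0.28, Gata2 at 0.33 and Otx1 at 0.39. Meis1 ranged from 0.812 to 1.61 RPKM and Otx1 from 0.158 to 0.416 RPKM over the 9 mice. Lists of mature neuron genes also had a wide spread, with a median residual SD of 1.11 in the hypothalamic peptide, 0.96 in the striatum, 0.77 in the habenula and 0.71 in the thalamus list.

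Genes of other regions moved with these comparisons, and their part in the results was not tested. Of 10 cortex neuron genes, 7 rose in ICH against sham, with a summed level of 43.6 to 65.6 RPKM in the sham, 103 to 172 RPKM in the ICH and 81.0 to 98.4 RPKM in the feb mice. Neurod6 among them rose by 2.23 on the log2 scale. Of 10 thalamus neuron genes 1 was called, Tcf7l2, a factor of thalamic neurons, which fell by 1.61 in ICH. All 10 had a negative difference in ICH against sham (median -0.95) and a positive one in feb against ICH (median 0.72), beside 24 and 25 of the 28 transcription factors. The summed level of the 10 genes was 261 to 419 RPKM in the sham, 76.7 to 305 RPKM in the ICH and 169 to 353 RPKM in the feb mice. Of 8 midbrain dopamine neuron genes Nr4a2 rose and Aldh1a1 and Ret fell in ICH, and in feb against ICH Ddc rose and Nr4a2 fell. Of 14 hypothalamic peptide genes Vip rose in ICH, Agrp rose in feb against ICH, and Agrp and Npy rose in feb against sham.

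Choroid plexus genes fell in 8 of 8 cases in feb against ICH and in 7 of 8 in feb against sham, from a summed level of 458 to 967 RPKM in the ICH to 30.6 to 88.4 RPKM in the feb mice. None of 8 striatum, 6 habenula, 6 cerebellum genes and 1 serotonin and hindbrain gene tested was called in limma in any comparison, with 1 cerebellum gene at an unadjusted p under 0.05 in each of ICH against sham and feb against ICH and 0 in the other cases. The cerebellum list includes En2 and Barhl1, which are also among the 32 transcription factors. Over its 8 genes, sham 1 was the highest of the 9 mice in 5, En2 and Barhl1 among them, and the lowest in 1. The 8 striatum genes had a positive difference in ICH against sham (median 0.93) and a negative one in feb against ICH (median -0.44) in 8 of 8 cases. Their summed level was 112, 661 and 246 RPKM in sham 1, 2 and 3, so that sham 1 was the lowest and sham 2 the highest sham mouse in 8 of 8 genes, whereas sham 2 was the lowest sham mouse in 26 of the 32 transcription factors. The summed level was 281, 516 and 581 RPKM in ICH 1, 2 and 3 and 443, 225 and 426 RPKM in feb 1, 2 and 3, and its part in the results was not tested. Slc6a5, the glycine transporter of hindbrain neurons, and Hoxb3, a hindbrain Hox gene, were at 9.10 and 1.70 RPKM in sham 1, the mouse that was highest in 16 of the 32 genes.

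Some exons overlap other genes, and the use of strand in counting was not given, so their reads cannot be told apart in the shared stretch. Foxb1 shares 418 exon bases (14.0%) with B230323A14Rik on the opposite strand, and Rax shares 818 bases (49.0%) with Raxos1. Six6, Gata3, Lhx5 and Shox2 share 192, 155, 69 and 153 bases with a gene on the opposite strand, and Meis1 shares 1029 bases with Gm37818 on its own strand. B230323A14Rik was at 0.889, 0.600 and 1.38 RPKM in the sham, 0.516, 0.117 and 0.417 RPKM in the ICH and 1.53, 0.595 and 0.266 RPKM in the feb mice, the same order of the groups as Foxb1.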

How the data were processed

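Brain RNA of 9 mice was sequenced, with 3 mice a group, and groups were assigned by the labels. Per the methods and the submitters' processing notes, rRNA was depleted, molecules carried UMIs, reads were trimmed with Trimmomatic 0.36 and collapsed by UMI, aligned to GRCm38 and counted on exons with featureCounts (Subread 1.5.1). The authors deposited RPKM values of 38621 genes in 1 table. The annotation release and the use of strand were not given in the sources used here. The authors' own test was edgeR, on counts. A count test was planned only for deposited counts, and the file holds RPKM, so it was not run.

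The 29025 genes that reached an RPKM of 0.1 in 3 or more mice were fitted with limma 3.58.1 (R 4.3.3, eBayes with trend) on log2(RPKM + 0.1), with all 9 mice in 1 fit and no block. Calls needed a fold change of more than 2 and an unadjusted p below 0.05, the criteria of the study, and Benjamini-Hochberg adjustment ran over all genes tested. Whole reads were recovered from RPKM and exon length for 100% of values, within a tolerance of 0.02 reads, and used in limma-voom as an alternative. Exact permutation tests of 3 against 3 mice cannot go below p = 0.1. Mice are separate samples by label, and p-values measure only the spread between them. The test was first tried on simulated data. The members, regional lists and tests were chosen with earlier results of these data known, and lists are described by counts and medians with no set test. Genes named with values in every mouse were those called, those whose groups did not overlap in 2 or more comparisons, and the hypothalamic and midbrain genes tested. Of the other lists, genes called (at most 4) or otherwise the 2 with the highest mean could be named. Gata3, Slc6a3, Oxt, Avp and Pomc were added after their values were seen. Alternatives were other pseudocounts, filters, scalings and tests, a replicate block, and each mouse left out in turn. Promoter windows came from RefSeq on GRCm38.p6. Tables were made with Python 3.11.15, pandas 2.3.3 and numpy 2.4.6.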

Additional observations from a re-analysis of the deposited data

How the results depend on the processing

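Of the 28 genes, 7 were called in ICH against sham, 3 in feb against ICH and 0 in feb against sham. In ICH against sham the number was 1 with a pseudocount of 1 (Shox2) and 2 with an RPKM of at least 1 in 3 mice (Lhx5 and Shox2). It was 0 at an adjusted p under 0.05, and with each mouse left out it ranged from 1 to 17. In feb against ICH it was 0 with a pseudocount of 1, 0 with an RPKM of at least 1, 1 with quantile normalization, 5 in a fit of only 2 groups, 5 with voom and 0 at an adjusted p, and with each mouse left out it ranged from 0 to 6. In feb against sham it ranged from 0 to 4 with each mouse left out. Over all genes, the 735, 706 and 639 calls of the 3 comparisons became 158, 128 and 91 with a pseudocount of 1, 346, 287 and 263 with an RPKM of at least 1, 7, 2 and 1 at an adjusted p under 0.05, and 3570, 3212 and 2478 without the fold change, and leaving out each mouse gave 619 to 1299, 615 to 932 and 462 to 1150, with 1299 and 1150 reached without sham 2 and 1030 in feb against sham without feb 2. The cause was not tested, except that the stricter filters test fewer genes. With equal medians the all-gene median of ICH against sham moved from 0.08 to -0.03 and that of feb against sham from 0.05 to -0.06, while no gene of the 28 changed sign in ICH against sham or feb against ICH under either scaling. Gata2 and Otx1 changed sign in feb against sham. Fold changes changed sign in 13, 11 and 27 of 252 values (28 genes with each of 9 mice left out), in 9, 7 and 16 genes. None of these changes in ICH against sham or feb against ICH was in a gene called there. The hypothalamic minus midbrain median was 1.27, 0.03 and 1.12 in the 3 comparisons, and ranged from 0.44 to 1.99, from -0.52 to 1.02 and from 0.63 to 2.0 with each mouse left out. It was 0.44, 0.08 and 0.45 with a pseudocount of 1, 1.87, -0.48 and 0.88 with a pseudocount of 0.01, 2.02, -0.48 and 0.96 with voom, and 2.29, -0.37 and 1.92 with an RPKM of at least 1, where 3 genes remained. With quantile normalization it was -0.05 in feb against ICH. With the replicate block the numbers of the 28 genes called were 7, 4 and 0, and those over all genes 717, 684 and 615. Without it, En1 was called and Lmx1b was not, and with it Lmx1b was called and En1 was not. The labels do not say that a number marks a pair, and same-numbered mice had correlations of -0.13 to 0.02 in their deviations from the group means. At these levels, the genes with under 10 reads in a mouse are limited by counting error.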
